A study of Mus musculus with 9 samples.

Results

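The globin genes of the mouse, which encode the protein chains of hemoglobin and its relatives, were followed across 9 RNA sequencing libraries of splenic erythroblasts. They were picked by symbol from a list of 10 genes: 9 are reported here, out of 20368 genes in the deposited table, and all 9 passed the filter on low values (at least 1 FPKM in at least 3 libraries, which 9543 genes met). FPKM here is a number of reads per kilobase of gene length, set between libraries by a size factor for each, so it is a level per length. The libraries came from the spleens of C57BL/6 mice aged 4 weeks. There were 3 libraries of Dhh-/- mice (knockout), 3 of Dhh+/- mice (heterozygous) and 3 of Wildtype mice. Dhh encodes Desert hedgehog, a secreted ligand, and the series asks what it does in the formation of red cells in the spleen. Cells were sorted for 2 surface markers, the transferrin receptor CD71 and the erythroid antigen Ter119, in a gate that the submitters call erythroblast population II. The kind of null allele is not given in the sources used here. Whether the replicates are separate mice is not stated, so a p-value here reflects only the spread among the libraries, part of which may be technical.

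Hemoglobin of the adult mouse holds a pair of alpha chains and a pair of beta chains, each with a heme group that binds oxygen. The genes lie in separate clusters, alpha-like genes in one and beta-like genes in the other, and each cluster is driven by distant erythroid enhancers. Primitive red cells of the early embryo use zeta (Hba-x), epsilon-y (Hbb-y) and beta-h1 (Hbb-bh1) globin, and definitive red cells of the fetal liver, spleen and marrow use the adult genes. Erythroblasts build up globin mRNA as they mature, and the output of alpha chains, beta chains and heme has to be matched, since free chains and free heme damage the cell.

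The reads recovered from the FPKM steps numbered 7.05 to 14.23 M per library (M, 1e6 reads), and the libraries fell into 2 depth sets. Knockout replicate 2, heterozygous replicate 2 and wildtype replicates 1 and 2 had under 10 M reads, and the other 5 libraries had more. The targeted gene, Dhh, had a level above 0 in heterozygous replicate 1 alone (0.0267 FPKM) and was listed at 0 in the other 8 libraries, wildtype ones included, which gives no check of the genotypes. All 10 defining erythroid markers were present in each group, with a summed level of 10390 to 13020 FPKM in knockout, 8989 to 14510 FPKM in heterozygous and 11020 to 14620 FPKM in wildtype libraries. Markers of other blood cells were also present. The 10 macrophage markers summed to 394.8 to 1479 FPKM in knockout, 696.1 to 851.6 FPKM in heterozygous and 112.1 to 1251 FPKM in wildtype libraries. The 8 B cell markers in the table summed to 349 to 885.7 FPKM in knockout, 634.6 to 855.8 FPKM in heterozygous and 90.73 to 1420 FPKM in wildtype libraries. The 7 neutrophil markers summed to 401.5 to 1455 FPKM in knockout, 250.7 to 737.1 FPKM in heterozygous and 313.3 to 1582 FPKM in wildtype libraries. The 7 T and natural killer cell markers in the table summed to 29.66 to 63.77 FPKM in knockout, 28.75 to 60.44 FPKM in heterozygous and 0.9827 to 67.59 FPKM in wildtype libraries, and the 7 megakaryocyte and platelet markers summed to 39.63 to 62.27 FPKM over all libraries. No gene of these 5 lists was at 0 throughout a group, and the most abundant of each were Hmox1 and Csf1r, Cd74 and H2-Aa, S100a9 and S100a8, Nkg7 and Cd3g, and Gp9 and Itga2b.

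The alpha-like genes lie on the plus strand of chromosome 11 (mm10, positions from GENCODE M21), in the order Hba-x (32276400 to 32278116), Hba-a1 (32283511 to 32284465), Hbq1b (32286965 to 32287784), Hba-a2 (32296489 to 32297298) and Hbq1a (32300069 to 32300873). The beta-like genes lie on the minus strand of chromosome 7, in the order of transcription Hbb-y (103851749 to 103853216), Hbb-bh1 (103841637 to 103843164), Hbb-bs (103826534 to 103828096) and Hbb-bt (103812524 to 103813996). All 9 are annotated as protein-coding. In both clusters the embryonic genes come first along the direction of transcription. Their levels were the lowest, and those of the adult genes the highest, with the theta globins, Hbq1b and Hbq1a, in between.

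**Figure D1:**
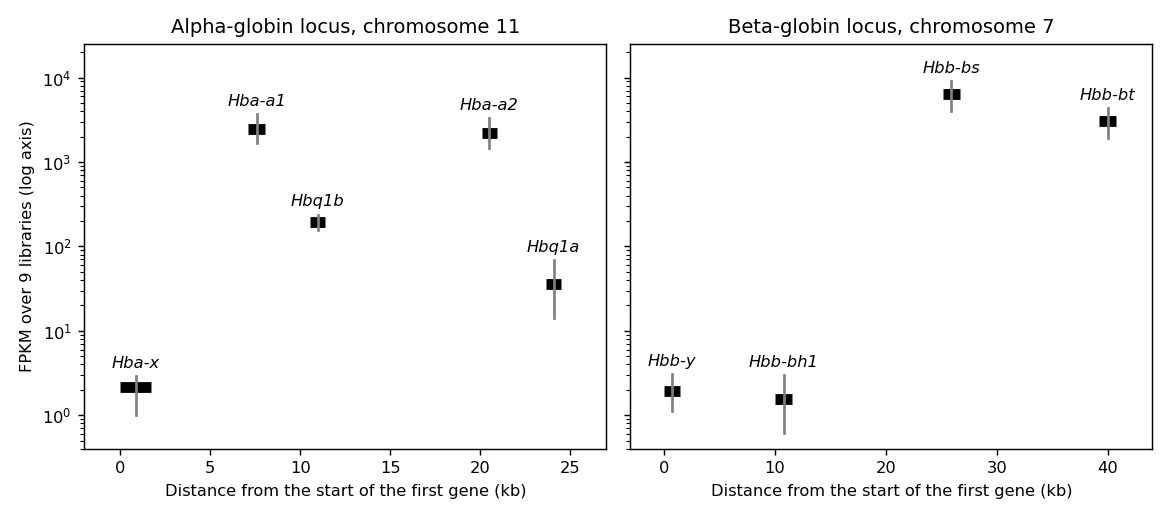
Level of the 9 globin genes (FPKM, log axis) against the distance in kb of each gene from the start of the first gene of its cluster, in the direction of transcription. Boxes span the gene and stand at its mean over 9 libraries, and vertical lines run from the lowest to the highest library; Hbb-bs, at 25.12 kb, has the highest mean, and the 3 embryonic genes lie under 4 FPKM in every library.

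Because the clusters arose by duplication, pairs of genes share sequence, and the authors' counting could split their reads. Of the 50-base windows of the longest coding transcript, Hba-a1 shared 67.5% with Hba-a2, and Hba-a2 shared 86.9% with Hba-a1. Hbb-bs shared 65.8% of its windows with Hbb-bt, and Hbb-bt 58.3% with Hbb-bs. Hbq1a shared 36.8% with Hbq1b, and Hbq1b 39.8% with Hbq1a. The level of one gene of a pair is therefore uncertain where it is set against the other. Hba-x, Hbb-y and Hbb-bh1 shared 0 windows with any other annotated transcript.

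The 120 bases before the RefSeq start of the 3 pairs are printed next (GRCm38.p6, 5′ to 3′ on the strand of the gene), since the results below turn on which members of these pairs moved together. RefSeq's promoter table held 8 of the 9 genes. Capitals mark matches, on either strand, to 7 motifs. These were CACACCC, to which Klf1 binds in beta-globin promoters, the promoter element CCAAT, the GATA factor motif AGATAA, the similar GATA factor motif TGATAA, the start-proximal element TATAA and its variant form CATAA. The short motif CACCC, which is also the end of CACACCC, was added after the sequences had been seen. TATAA and CATAA end in the same 4 letters as the GATA motifs. The GENCODE M21 start lies upstream of the RefSeq start for Hba-x, Hba-a1, Hba-a2, Hbb-y, Hbb-bs and Hbb-bt.
Hba-a1 (chr11:32283552-32283671, plus strand): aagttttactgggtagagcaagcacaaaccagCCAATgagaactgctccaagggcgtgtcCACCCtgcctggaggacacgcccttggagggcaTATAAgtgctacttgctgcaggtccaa
Hba-a2 (chr11:32296372-32296491, plus strand): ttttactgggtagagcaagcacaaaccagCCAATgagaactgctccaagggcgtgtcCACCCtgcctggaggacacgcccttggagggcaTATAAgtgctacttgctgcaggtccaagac
Hbb-bs (chr7:103827929-103828048, minus strand): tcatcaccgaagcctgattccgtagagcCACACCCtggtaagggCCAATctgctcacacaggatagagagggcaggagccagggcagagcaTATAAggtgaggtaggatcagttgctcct
Hbb-bt (chr7:103813924-103814043, minus strand): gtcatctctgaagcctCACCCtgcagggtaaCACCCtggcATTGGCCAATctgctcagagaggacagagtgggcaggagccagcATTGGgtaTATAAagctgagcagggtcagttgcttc
Hbq1b (chr11:32286844-32286963, plus strand): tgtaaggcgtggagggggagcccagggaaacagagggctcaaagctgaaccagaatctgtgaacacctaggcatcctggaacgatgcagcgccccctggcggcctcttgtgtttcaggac
Hbq1a (chr11:32299949-32300068, plus strand): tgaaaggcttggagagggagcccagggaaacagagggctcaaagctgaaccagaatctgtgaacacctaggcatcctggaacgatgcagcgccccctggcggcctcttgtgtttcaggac

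The windows of Hba-a1 and Hba-a2 were the same sequence shifted by a few bases, with 117 identical bases and 0 mismatches. Those of Hbb-bs and Hbb-bt had 91 identical bases and 27 mismatches, and those of Hbq1a and Hbq1b had 117 identical bases and 3 mismatches. The adult genes each held TATAA 27 to 30 bases before the start and CCAAT 75 to 91 bases before it. CACACCC stood in the window of Hbb-bs alone among the 8 genes, 92 bases before the start, while Hbb-bt held CACCC at 104 and 89 bases before its start and CCAAT also on the other strand, at 80 and 36. Of 32851 promoter windows of the same length, 11.8% held TATAA, and the share with CCAAT was 21.3%. The Klf1 motif CACACCC was in 3.78% of them and the shorter motif CACCC in 31.7%, the GATA motif AGATAA in 4.36% and the GATA motif TGATAA in 3.55%, and the variant element CATAA in 12.7%. Of the genes not printed, Hba-x held TGATAA 108 bases before its start, with CACCC at 95 and with TATAA at 28. Hbb-y held CACCC 111 bases before its start, with CCAAT at 83 and with CATAA at 29. The windows of the theta genes held none of the motifs.

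Hbb-bs, the more abundant adult beta-globin gene of the C57BL/6 haplotype, was the highest of the 9 in every library. It was at 4646, 8129 and 5118 FPKM in knockout replicates 1, 2 and 3, at 4022, 8985 and 4212 FPKM in heterozygous replicates, and at 8711, 7642 and 5453 FPKM in wildtype replicates. Replicate 2 of the knockout and of the heterozygous group and replicates 1 and 2 of the wildtype group were high, so that each genotype held high and low libraries and the groups overlapped. Means were 5964 ± 1889 FPKM in knockout, 5740 ± 2812 FPKM in heterozygous and 7269 ± 1661 FPKM in wildtype libraries (SD, n = 3 each). In bulk libraries, fewer cells of a type and less RNA per cell cannot be told apart.

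Hbb-bt, the second adult beta-globin gene, was at 2229, 4098 and 2429 FPKM in knockout, 1948, 4339 and 2038 FPKM in heterozygous and 4247, 3913 and 2624 FPKM in wildtype replicates 1, 2 and 3. The same 4 libraries were high as for Hbb-bs, and the groups overlapped. Its means were 2919 ± 1026 FPKM in knockout, 2775 ± 1355 FPKM in heterozygous and 3594 ± 857.2 FPKM in wildtype libraries (SD, n = 3 each). In all 9 libraries Hbb-bs exceeded Hbb-bt, by 1.95-fold to 2.11-fold.

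Hba-a1, one of the paired adult alpha-globin genes, was at 1928, 3069 and 1958 FPKM in knockout, 1686, 3674 and 1677 FPKM in heterozygous and 3226, 2889 and 2070 FPKM in wildtype replicates 1, 2 and 3. Hba-a2, whose transcript matched that of Hba-a1 at 537 of the aligned bases with 1 mismatch, was at 1656, 2860 and 1680 FPKM in knockout, 1456, 3334 and 1461 FPKM in heterozygous and 2962, 2648 and 1850 FPKM in wildtype replicates. For both alpha genes the libraries high for the beta genes were again the high ones, in each genotype. Means for Hba-a1 were 2319 ± 650.2 FPKM in knockout, 2346 ± 1151 FPKM in heterozygous and 2728 ± 594.6 FPKM in wildtype libraries, and for Hba-a2 they were 2065 ± 688 FPKM in knockout, 2083 ± 1083 FPKM in heterozygous and 2486 ± 573.4 FPKM in wildtype libraries (SD, n = 3 each). Hba-a1 exceeded Hba-a2 in 9 of 9 libraries, by 1.07-fold to 1.17-fold.

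The order of the levels was nearly fixed. Hbb-bs stood above Hbb-bt, Hbb-bt above Hba-a1, Hba-a1 above Hba-a2, Hba-a2 above Hbq1b, Hbq1b above Hbq1a and Hbq1a above Hba-x in 9 of 9 libraries each. The median folds per step were 2.07, 1.24, 1.12, 9.4, 7.72 and 11.4. Hba-x was above Hbb-y in 5 of 9 libraries and Hbb-y above Hbb-bh1 in 7 of 9, so the 3 embryonic genes did not differ in level beyond their spread.

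**Figure D2:**
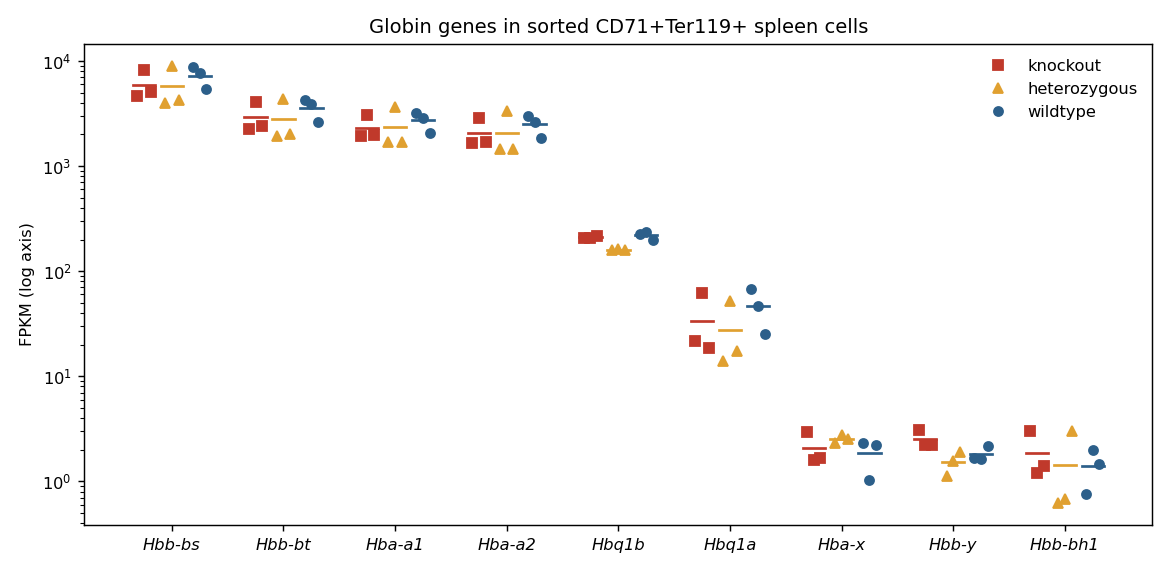
Level of each globin gene per library (FPKM, log axis) in knockout, heterozygous and wildtype libraries, from left to right within a gene. Points are libraries (replicates 1, 2 and 3 from left to right) and bars are group means; for the adult genes and Hbq1a each group holds both high and low libraries, and for Hbq1b the 3 heterozygous libraries lie below all others.

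The adult globin levels moved with the depth of the library. In all 4 libraries under 10 M reads each of the 4 adult genes was above its level in all 5 deeper libraries, with mean FPKM higher by 1.72-fold for Hba-a1, 1.82-fold for Hba-a2, 1.78-fold for Hbb-bs and 1.84-fold for Hbb-bt. Among all tested genes 5.66% had every shallower library above every deeper one. Summed over the 4 genes, the level was 10459, 18155 and 11186 FPKM in knockout, 9112, 20332 and 9388 FPKM in heterozygous and 19145, 17092 and 11996 FPKM in wildtype replicates 1, 2 and 3. As a share of the summed FPKM of the library this was 2.66%, 4.64% and 2.72% in knockout, 2.53%, 5.06% and 2.52% in heterozygous and 4.56%, 4.14% and 2.86% in wildtype replicates. Some markers of other cells moved with depth too. The T and natural killer cell markers summed to 60.44 to 67.59 FPKM in the shallower libraries, all above the 0.9827 to 30.67 FPKM of the deeper ones. The megakaryocyte and platelet markers summed to 39.63 to 44.57 FPKM in the shallower libraries, only just below the 44.71 to 62.27 FPKM of the deeper ones. Of these 7 genes, 3 had a mean of 1 FPKM or more. The macrophage markers overlapped, at 696.1 to 1479 FPKM in the shallower and 112.1 to 851.6 FPKM in the deeper libraries. So did the B cell markers, at 495 to 1420 FPKM and 90.73 to 855.8 FPKM. The neutrophil markers overlapped as well, at 737.1 to 1582 FPKM and 250.7 to 1212 FPKM. The part of other cells in the globin levels was not tested, and that of depth was not tested apart from the depth term given with the comparisons.

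Counted as reads rather than per length and depth, the adult globins varied less than depth did. The 4 genes together had 86625, 104763 and 88881 reads in knockout, 87833, 90358 and 87416 reads in heterozygous and 101515, 102286 and 97955 reads in wildtype replicates 1, 2 and 3. The highest of these was 1.21-fold the lowest, while depth ranged 2.02-fold and the summed FPKM of the 4 genes 2.23-fold. Each wildtype library had more of these reads than each heterozygous one, and the knockout libraries spanned both. The reads were not tested between genotypes. From the shallower to the deeper libraries the mean reads of Hba-a1, Hba-a2, Hbb-bs and Hbb-bt changed by 0.939-fold, 0.889-fold, 0.903-fold and 0.873-fold, against a median of 1.67-fold over all tested genes and a range of 0.831-fold to 2.1-fold between the 5th and the 95th percentile. Other abundant genes behaved in either way. Slc4a1, the anion exchanger of the red cell membrane, had 1.517-fold more reads in the deeper libraries, while Alas2, the erythroid enzyme that starts heme synthesis, changed by 0.778-fold and Bpgm, which makes the 2,3-bisphosphoglycerate that lowers the oxygen affinity of hemoglobin, by 0.595-fold. Of 27 other genes with a mean of 1000 FPKM or more, 11 had every shallower library above every deeper one.

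**Figure D3:**
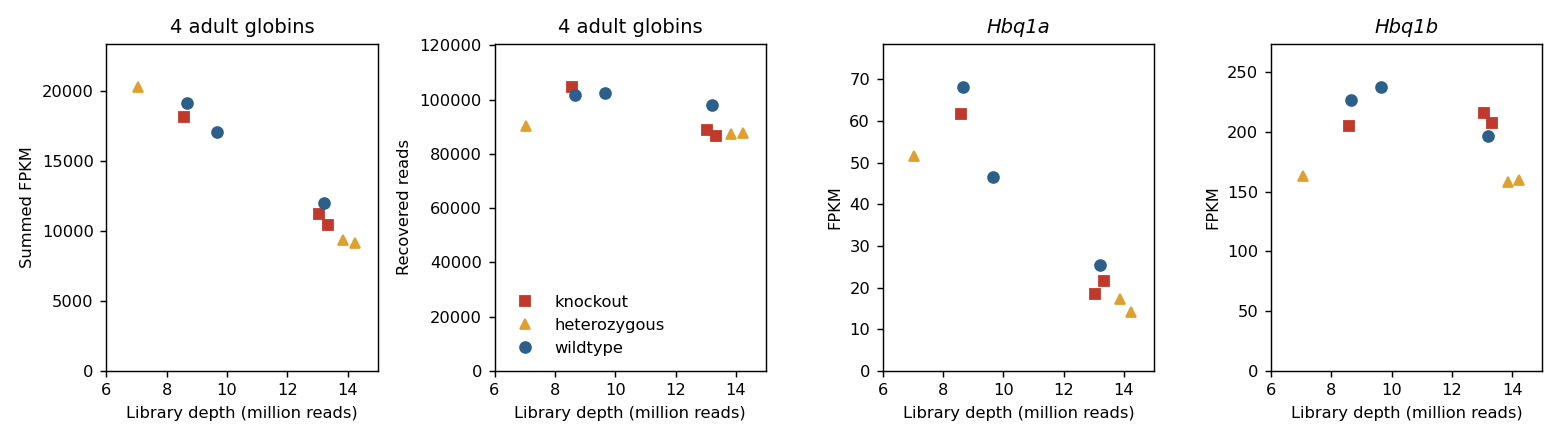
Summed FPKM and recovered reads of the 4 adult globin genes, and FPKM of Hbq1a and Hbq1b, against the depth of the library in units of 1e6 reads. Each point is a library; summed FPKM falls from the 4 shallower to the 5 deeper libraries, adult globin reads stay between 86625 and 104763, Hbq1a falls, and Hbq1b separates the heterozygous libraries at either depth.

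The genotypes were in the same order for all 4 adult genes among the deeper libraries and interleaved among the shallower ones. Among the deeper libraries Hbb-bs was at 4646 and 5118 FPKM in knockout, 4022 and 4212 FPKM in heterozygous and 5453 FPKM in the single wildtype library, and Hbb-bt, Hba-a1 and Hba-a2 had the same order of genotypes. Among the shallower libraries Hbb-bs was at 8129 FPKM in the knockout, 8985 FPKM in the heterozygous and 8711 and 7642 FPKM in the wildtype libraries, and for all 4 genes heterozygous replicate 2 was the highest and the knockout library lay between the wildtype ones. With 1 or 2 libraries of a genotype per set these are values with no test.

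Ratios within a library do not depend on its size factor, though some of those below still moved with depth. The ratio of alpha to beta globin (Hba-a1 and Hba-a2 over Hbb-bs and Hbb-bt, per length) was 0.5213, 0.4849 and 0.4821 in knockout, 0.5263, 0.526 and 0.5019 in heterozygous and 0.4775, 0.4792 and 0.4853 in wildtype replicates 1, 2 and 3. All 3 heterozygous libraries lay above all 3 wildtype libraries, and the knockout libraries overlapped both. The difference between heterozygous and wildtype was 0.11 on the log2 scale, with SDs of 0.0393 in heterozygous and 0.0122 in wildtype libraries, and an exact two-sided permutation test gave p = 0.1, the smallest that 3 against 3 libraries allow (adjusted p = 0.75 over 15 ratio tests). It was seen in both depth sets, with 0.526 in the heterozygous and 0.4775 and 0.4792 in the wildtype libraries of lower depth, and 0.5263 and 0.5019 in the heterozygous and 0.4853 in the wildtype libraries of higher depth. Knockout minus wildtype was 0.04 (exact permutation p = 0.3, adjusted p = 0.75) and knockout minus heterozygous -0.06 (exact permutation p = 0.2, adjusted p = 0.75) on the log2 scale.

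The other ratios overlapped between the genotypes. Hba-a2 over Hba-a1 was 0.8585, 0.9317 and 0.8583 in knockout, 0.8636, 0.9073 and 0.8712 in heterozygous and 0.9181, 0.9168 and 0.8937 in wildtype replicates 1, 2 and 3. The 4 shallower libraries had the 4 highest of these ratios, in every genotype. Hbb-bt over Hbb-bs was 0.4797, 0.5041 and 0.4746 in knockout, 0.4845, 0.483 and 0.4839 in heterozygous and 0.4875, 0.5121 and 0.4811 in wildtype replicates. The shallower knockout and wildtype libraries were the highest here too. The shallower heterozygous replicate 2, at 0.483, lay below both deeper heterozygous libraries. The 4 adult globins over Alas2, a measure of globin against heme synthesis mRNA, were at 3.185, 2.666 and 3.175 in knockout, 3.16, 2.726 and 3.135 in heterozygous and 2.7, 2.679 and 2.948 in wildtype replicates. Here the 4 shallower libraries were the lowest, so Alas2 varied with depth more than the globins did. The adjusted p of the exact permutation tests of these ratios and of the globin share of summed FPKM was 0.75 or more in each comparison.

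**Figure D4:**
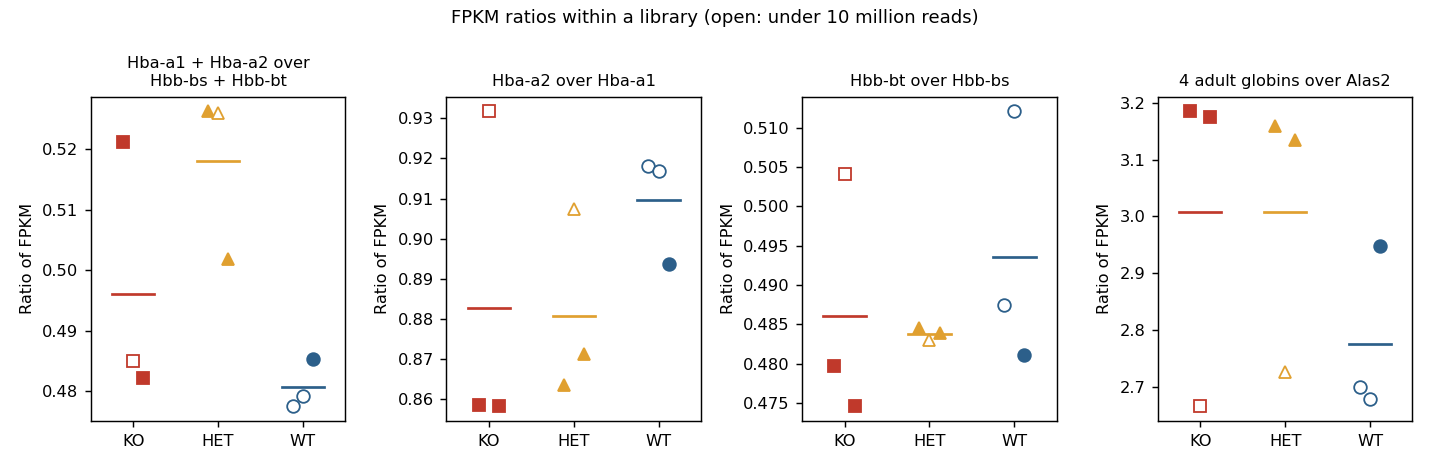
Ratios of FPKM within each library for alpha to beta globin, Hba-a2 to Hba-a1, Hbb-bt to Hbb-bs, and the adult globins to Alas2, in knockout (KO), heterozygous (HET) and wildtype (WT) libraries; the axes do not start at 0. Points are libraries, open ones with under 10 M reads, and bars are group means; the alpha to beta ratio is 0.5019 to 0.5263 in heterozygous and 0.4775 to 0.4853 in wildtype libraries.

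The theta globins, alpha-like genes whose protein has no established role in hemoglobin, differed from each other in how they varied. Hbq1b, between Hba-a1 and Hba-a2, was at 207.5, 205.5 and 215.9 FPKM in knockout, 159.7, 163.5 and 158.3 FPKM in heterozygous and 226.7, 238.1 and 196.8 FPKM in wildtype replicates 1, 2 and 3. All 3 heterozygous libraries were below all 6 others, and knockout and wildtype libraries overlapped. Its means were 209.6 ± 5.507 FPKM in knockout, 160.5 ± 2.7 FPKM in heterozygous and 220.5 ± 21.3 FPKM in wildtype libraries (SD, n = 3 each), from 892 to 2109 reads per library. The deeper and shallower libraries overlapped, with 1.42-fold more reads in the deeper ones, near the median gene. The low heterozygous level was seen in both depth sets, with 205.5 FPKM in the knockout, 163.5 FPKM in the heterozygous and 226.7 and 238.1 FPKM in the wildtype libraries of lower depth, and 207.5 and 215.9 FPKM in the knockout, 159.7 and 158.3 FPKM in the heterozygous and 196.8 FPKM in the wildtype libraries of higher depth.

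Hbq1a, at the end of the cluster, was at 21.56, 61.66 and 18.45 FPKM in knockout, 14.02, 51.53 and 17.36 FPKM in heterozygous and 68.29, 46.63 and 25.5 FPKM in wildtype replicates 1, 2 and 3. It was high in the same 4 libraries as the adult genes, more steeply, with a 4.87-fold range over the libraries and a mean 2.94-fold higher in the shallower ones, and the genotypes overlapped. Means were 33.89 ± 24.1 FPKM in knockout, 27.64 ± 20.76 FPKM in heterozygous and 46.81 ± 21.39 FPKM in wildtype libraries (SD, n = 3 each), from 134 to 358 reads per library. Its reads were fewer in the deeper libraries, by 0.542-fold. Hbq1a over Hbq1b was thus 0.1039, 0.3 and 0.08547 in knockout, 0.0878, 0.3152 and 0.1097 in heterozygous and 0.3012, 0.1959 and 0.1296 in wildtype replicates, a ratio added after the levels had been seen and not tested. Their promoter windows, printed above, differed at 3 bases.

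The embryonic globins were near the lower limit of detection. Hba-x, which encodes the zeta chain, was at 2.938, 1.585 and 1.663 FPKM in knockout, 2.314, 2.738 and 2.507 FPKM in heterozygous and 2.3, 1.019 and 2.24 FPKM in wildtype replicates 1, 2 and 3. All 3 heterozygous libraries were just above the wildtype ones, on 6 to 24 reads per library, and the knockout libraries overlapped both.

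Hbb-y, the epsilon-y gene, was at 3.091, 2.222 and 2.235 FPKM in knockout, 1.123, 1.55 and 1.905 FPKM in heterozygous and 1.675, 1.649 and 2.175 FPKM in wildtype replicates 1, 2 and 3. The knockout libraries were all above those of the other genotypes. The lowest knockout library, replicate 2, rested on 13 reads (95% Poisson interval 6.92 to 22.2) and the highest wildtype library, the deeper replicate 3, on 18 reads (10.7 to 28.4). Such intervals cover counting error only. Hbb-bh1, the beta-h1 gene, was at 3.016, 1.214 and 1.386 FPKM in knockout, 0.6217, 0.6743 and 3.007 FPKM in heterozygous and 0.7555, 2.008 and 1.471 FPKM in wildtype replicates, on 3 to 28 reads, with overlapping groups.

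Whether globin expression changed with neither Dhh allele present was tested between knockout and wildtype libraries. None of the 9 genes passed the limma test, against 0% of all 9543 genes tested (Benjamini-Hochberg adjusted p below 0.05), and 0 of the 9 had an unadjusted p below 0.05, against 0.451% of all genes. The fitted differences, on the log2(FPKM + 1) scale that understates those of low genes, were -0.30 (SE 0.35) for Hbb-bs, -0.32 (SE 0.36) for Hbb-bt, -0.24 (SE 0.33) for Hba-a1 and -0.29 (SE 0.36) for Hba-a2. The 95% interval of Hbb-bs ran from -1.09 to 0.48, so that a 2-fold decrease lay within it. Hbq1b differed by -0.07 (SE 0.11, interval -0.31 to 0.17) and Hbq1a by -0.56 (SE 0.59). For the embryonic genes the differences were 0.11 for Hba-x, 0.31 (SE 0.18) for Hbb-y and 0.23 for Hbb-bh1. The limma adjusted p was 0.9997 for each. Of the 9, 1 gene, Hbb-y, was higher in each knockout than in each wildtype library, against 1.08% of all genes. The median difference of the 9 was -0.24, with 6 below 0, against 0.0088 over all genes and 47.3% below 0.

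With depth as a term in the limma fit, the knockout minus wildtype difference was -0.14 (SE 0.07) for Hbb-bs, -0.15 for Hbb-bt, -0.08 for Hba-a1, -0.11 for Hba-a2 and -0.27 for Hbq1a, each nearer to 0 than without it, and 0 genes were called. These genes were low in both knockout and wildtype libraries of higher depth, and the knockout group held 2 of those and the wildtype group 1. Among those, Hbb-bs was at 4646 and 5118 FPKM in knockout and 5453 FPKM in wildtype. The part of depth, apart from that of other cells or of maturity, was not tested. The size of the differences rested on single libraries, in the fit with no depth term. Without knockout replicate 2 the difference was -0.55 for Hbb-bs, -0.46 for Hba-a1 and -1.08 for Hbq1a. Without knockout replicate 1 it was -0.15 for Hbb-bs, and without wildtype replicate 1 it was -0.11 for Hba-a1 and -0.24 for Hbq1a.

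**Figure D5:**
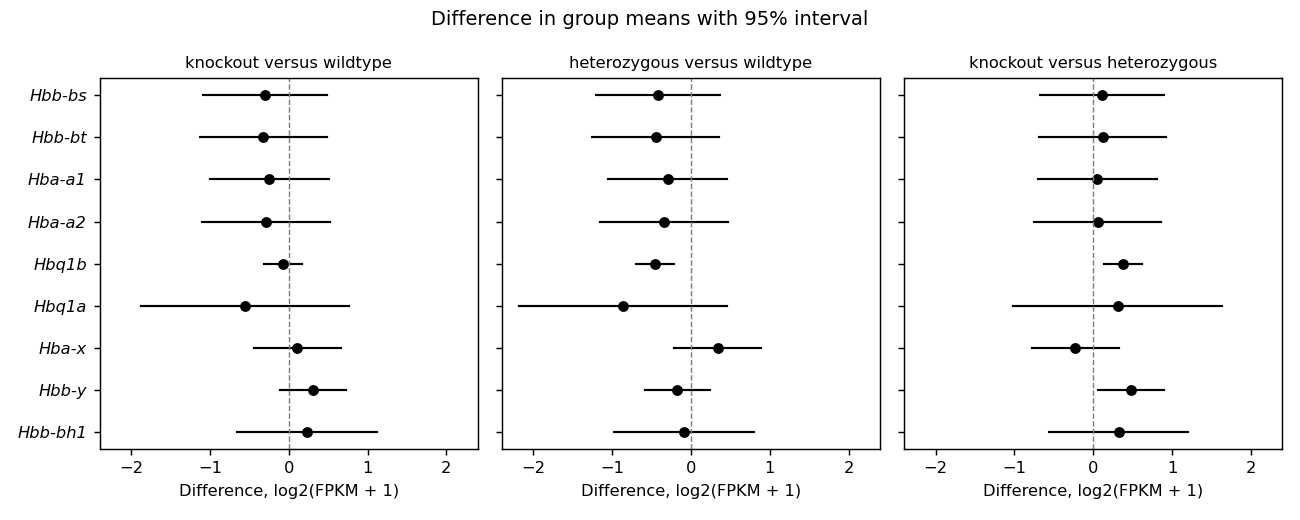
Difference of group means for each globin gene on the log2(FPKM + 1) scale, with its 95% interval, for knockout versus wildtype, heterozygous versus wildtype and knockout versus heterozygous, from limma over 9 libraries. A value above 0 is higher in the group named first; the intervals exclude 0 for Hbq1b in the comparisons that involve heterozygous libraries and for Hbb-y between knockout and heterozygous, before adjustment, and 0 differences pass the adjusted test.

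The loss of 1 allele was tested between heterozygous and wildtype libraries. None of the 9 genes passed, against 0% of all genes (limma adjusted p = 0.9999 for each). The largest difference relative to its error was that of Hbq1b, at -0.45 (SE 0.11, interval -0.69 to -0.21). In the fit with no depth term it was the 1 gene of the 9 with an unadjusted limma p below 0.05, against 1.18% of all genes. Hbb-bs differed by -0.42 (SE 0.35), Hbb-bt by -0.45 (SE 0.36), Hba-a1 by -0.30 (SE 0.33), Hba-a2 by -0.34 (SE 0.36) and Hbq1a by -0.86 (SE 0.59). Hba-x differed by 0.34 (SE 0.24), Hbb-y by -0.17 and Hbb-bh1 by -0.09. Groups did not overlap for 1 gene lower in heterozygous libraries, Hbq1b, against 3.07% of all genes in that direction, and for 1 gene higher, Hba-x, against 1.29%. The median of the 9 was -0.34, with 8 below 0, against -0.002 over all genes and 50.6% below 0. Scaling every library to the same summed FPKM moved the median of all genes by 0.14 in this comparison, and Hbq1b then differed by -0.31, or -0.45 relative to that median. With the depth term Hbq1b differed by -0.44 and Hbb-bs by -0.29 (limma adjusted p = 0.9987 for both). The depth term made the SE of Hbb-bs smaller in the knockout versus wildtype comparison above. The unadjusted p-values of the fit with that term are not given here, so the count at an unadjusted p does not cover it. Without heterozygous replicate 2 the difference was -0.79 for Hbb-bs, -0.67 for Hba-a1 and -1.42 for Hbq1a, and without heterozygous replicate 1 it was -0.21 for Hbb-bs and -0.52 for Hbq1a. Markers of other cells differed in the same comparison, with 0 genes called. All 10 macrophage and all 8 B cell markers had a difference above 0, with medians of 0.63 and 0.78, and 6 of 7 neutrophil markers had one below 0, with a median of -0.58. Wildtype replicate 3 had the lowest macrophage sum, 112.1 FPKM, and the lowest B cell sum, 90.73 FPKM, and without it Hbq1b differed by -0.53 and Hbb-bs by -0.61. The part of these cells in the globin differences was not tested.

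Between knockout and heterozygous libraries, which differ by the second allele, 0 of the 9 genes passed, against 0% of all genes (limma adjusted p = 0.9996 for each). Hbq1b was higher in each knockout library, with a difference of 0.38 (SE 0.11, interval 0.14 to 0.62), and so was Hbb-y, with 0.48 (SE 0.18, interval 0.06 to 0.89). These 2 of the 9 genes had an unadjusted limma p below 0.05, against 0.587% of all genes, and both had each knockout library above each heterozygous one, against 2.61%. 1 of the 9 differences was below 0, against 48.9% of all genes. The differences of the adult genes were 0.11 for Hbb-bs, 0.12 for Hbb-bt, 0.05 for Hba-a1 and 0.06 for Hba-a2. Their SEs were 0.35, 0.36, 0.33 and 0.36. The differences of Hba-a1 and Hba-a2 turned negative where libraries were scaled to equal summed FPKM. That scaling moved the median of all genes from 0.004 to -0.07. Hbq1a differed by 0.31, Hba-x by -0.23 and Hbb-bh1 by 0.32. This comparison shares the heterozygous libraries with the one before, so the low heterozygous level of Hbq1b enters both.

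The genes around the alpha-globin cluster were looked at because of Hbq1b. They were chosen by position, after its values had been seen. Of 6 other genes of the table within 100 kb of the cluster 3 passed the filter, and of 13 within 100 kb of the beta-globin cluster 0 did. Nprl3, whose introns hold the enhancers of the alpha-globin genes, was at 76.09 ± 19 FPKM in knockout, 70.01 ± 5.888 FPKM in heterozygous and 73.32 ± 6.683 FPKM in wildtype libraries (SD, n = 3 each). Mpg, a DNA glycosylase gene within the span of Nprl3, was at 25.07 ± 5.323 FPKM in knockout, 22.17 ± 4.995 FPKM in heterozygous and 23.59 ± 4.806 FPKM in wildtype libraries. Snrnp25, a component of the minor spliceosome that lies 67.4 kb before Hba-x, was at 80.5 ± 4.941 FPKM in knockout, 63.9 ± 4.137 FPKM in heterozygous and 81.55 ± 6.879 FPKM in wildtype libraries. Its heterozygous libraries were also all below the others, by -0.35 on the log2 scale against wildtype (SE 0.11, limma adjusted p = 0.9999). Of all genes, 3.07% had each heterozygous library below each wildtype one. In 2.61%, each knockout library was above each heterozygous one. The heterozygous libraries of Nprl3 and Mpg overlapped those of both other groups.

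The genes whose profile over the 9 libraries was most like that of a globin gene were found as those with the smallest root mean square difference of centred log2(FPKM + 1) values, among 4624 other genes with a mean of at least 10 FPKM. For Hba-a1 these were Epb4.1 (0.0495), a protein of the red cell membrane skeleton, Rnf10 (0.0727) and Adipor1 (0.0971), and for Hba-a2 they were the same genes, at 0.0688, 0.0769 and 0.0808. For Hbb-bs they were Bnip3l (0.0755), which clears mitochondria from maturing red cells, the ubiquitin gene Ubb (0.0768) and Rnf10 (0.0781). For Hbb-bt they were Isg20 (0.062), Adipor1 (0.0646) and Bnip3l (0.0648). The adult globins were as close to each other, at 0.0335 between Hbb-bs and Hbb-bt and 0.0635 between Hbb-bs and Hba-a1. The spread of Hbb-bs itself on this scale was 0.44, against a median of 0.203 over tested genes.

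The theta and embryonic genes had other companions. For Hbq1a they were Bpgm (0.167), Iscu (0.264), a scaffold for iron-sulfur clusters, and Gabarapl2 (0.274). For Hbq1b the closest was Snrnp25 (0.0834), followed by Slc7a6os (0.0964) and Tspo2 (0.097). Hbq1a and Hbq1b were 0.723 apart from each other, farther than Hbq1a was from Hbb-bs (0.381) or Hbq1b from Hbb-bs (0.4). Among the closest to Hba-x were Sucla2 (0.189), Atp8a1 (0.193) and Taf1d (0.205), to Hbb-y Supt3 (0.136) and Churc1 (0.147), and to Hbb-bh1 Tmem128 (0.302), Clp1 (0.311) and Tmem208 (0.321), on few reads of the globin gene.

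Of the regulators of the globin loci 33 of 36 genes were tested, and 0 passed the adjusted limma test in any comparison, against 0% of all genes. Their median difference was -0.01 for knockout minus wildtype, 0.03 for heterozygous minus wildtype and 0.008 for knockout minus heterozygous. Klf1, the activator of adult beta-globin, was at 368 ± 52.4 FPKM in knockout, 341 ± 16.2 FPKM in heterozygous and 377 ± 50.5 FPKM in wildtype libraries, and Zfpm1, the partner of Gata1, at 352 ± 53.6 FPKM in knockout, 362 ± 24.4 FPKM in heterozygous and 357 ± 45.5 FPKM in wildtype libraries (SD, n = 3 each). Bcl11a and Sox6, repressors of the embryonic genes, averaged 3.104 and 75.18 FPKM over the 9 libraries, and Lin28b was listed at 0 in each. These 3 genes were picked for their known role in globin switching.

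All 9 genes of heme synthesis were tested and 0 passed in any comparison. Their median differences were -0.05 for knockout minus wildtype, -0.10 for heterozygous minus wildtype, and 0.10 for knockout minus heterozygous. For heterozygous minus wildtype 9 of 9 were below 0, and 4 of 9 where libraries were scaled to equal summed FPKM. With that scaling the median was 0.04 for the 9 genes and 0.14 for all genes, against -0.10 and -0.002 without it. Alas2 was at 4540 ± 1970 FPKM in knockout, 4450 ± 2610 FPKM in heterozygous and 5850 ± 1580 FPKM in wildtype libraries (SD, n = 3 each), with the same high libraries as the globins.

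Of the 12 genes of heme control of translation and globin quality control 0 passed, with medians of -0.05, -0.17 and 0.13 for knockout minus wildtype, heterozygous minus wildtype and knockout minus heterozygous. Prdx2, a peroxidase that protects hemoglobin from oxidation, was at 2680 ± 174 FPKM in knockout, 2400 ± 257 FPKM in heterozygous and 2880 ± 91 FPKM in wildtype libraries, and Ppp1r15a, which reverses the block of translation, at 585 ± 130 FPKM in knockout, 501 ± 32.9 FPKM in heterozygous and 620 ± 76.1 FPKM in wildtype libraries (SD, n = 3 each). For both genes each heterozygous library was below each wildtype one, as for 3.07% of all genes. The other genes of the list overlapped between these groups.

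Late maturation genes, 17 of the list of 18 in the table, had 0 calls too. The median was -0.04 for knockout minus wildtype, -0.20 for heterozygous minus wildtype and 0.13 for knockout minus heterozygous. For heterozygous minus wildtype 17 of 17 were below 0, against 50.6% of all genes, and 12 of 17 with equal summed FPKM. With that scaling their median was -0.06 and that of all genes 0.14, against -0.20 and -0.002 without it. For knockout minus heterozygous 17 of 17 were above 0, where 48.9% of all genes were below 0, and 12 of 17 were above 0 with equal summed FPKM. The scaled medians there were 0.05 for the list and -0.07 for all genes, against 0.13 and 0.004 unscaled. The summed level of the list was 20550 to 23180 FPKM in the 4 shallower libraries and 13390 to 16930 FPKM in the 5 deeper ones, so it moved with depth as the adult globins did. The most abundant were Alas2 and Slc4a1, the second at 3270 ± 297 FPKM in knockout, 3110 ± 321 FPKM in heterozygous and 3480 ± 188 FPKM in wildtype libraries (SD, n = 3 each). The part of a difference in maturity, in other cells or in depth in the globin values was not tested.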

How the data were processed

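Values were deposited by the authors as 1 table of FPKM with a column for each library. TopHat, Picard, DESeq2 and the build mm10 appear in the submitters' processing notes, with no role or version. Neither strand nor read pairing is given in the sources used here, and FPKM cannot be told from RPKM. The values of each gene were whole multiples of a step (within 0.05 of a read, for 100% of 14147 genes with a value above 0 in 2 libraries or more), and the steps of the libraries matched median-of-ratios size factors over 11276 genes. Reads were recovered from these steps, 7.05 to 14.23 M per library (M, 1e6 reads). A count of 0 allows up to 3 reads, for counting error only.

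Limma 3.58.1 in R 4.3.3 (lmFit, eBayes with a trend) was fitted to log2(FPKM + 1) of 9543 genes with a mean per genotype over 9 libraries. The 2-sided p-values were Benjamini-Hochberg adjusted over all genes in each of 3 comparisons, with 0.05 as the threshold. Ratios used exact permutation tests (scipy 1.17.1), adjusted over 15. Libraries with the same number deviated together between knockout and heterozygous (correlation 0.2, 0.18 and 0.41). The labels do not state pairing by number, so the main tests were unpaired and the replicate block was an alternative. Between knockout and wildtype the values were -0.57, 0.51 and 0.33, and between heterozygous and wildtype 0.13, 0.18 and 0.

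The named genes were the globin genes, the 2 most abundant genes of each list where 0 were called, the 3 most similar genes for each globin gene, and Dhh. Genes beside the clusters, Bcl11a, Sox6, Lin28b and the abundant genes of the depth check were added after values were seen. Members and lists were chosen with earlier results of these data known. 1 gene of the list is not analysed here, and some genes that the naming rule gives are not reported here. Alternatives were other pseudocounts (0.1 and 10), filters, scalings and weights, a depth term, voom on recovered reads, the replicate block and each library left out.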

Additional observations from a re-analysis of the deposited data

How the results depend on the processing

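The count of genes called stayed at 0 in each comparison under all 22 alternatives. At an unadjusted p below 0.05 voom on recovered reads had 38, 91 and 53 genes and limma 43, 113 and 56 (knockout versus wildtype, heterozygous versus wildtype, knockout versus heterozygous). Library weights, computed gene by gene because the REML weights did not converge, gave 2122, 886 and 1731, among them 8, 7 and 2 of the 9 globin genes. Hbb-bs was then at -0.64, Hbq1a at -1.12 and Hba-x at 0.63 for knockout minus wildtype (lowest limma adjusted p of the 9 genes 0.1781). Of the differences of single genes 555 kept their sign, 26 turned and 4 became 0 under quantile normalization, and of the ratios 107 kept it and 13 turned. Hbq1b kept its sign throughout, between -0.55 and -0.27 for heterozygous minus wildtype and between 0.27 and 0.40 for knockout minus heterozygous. Its lowest adjusted p, 0.08955, came with library weights.

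The values that turned are given as log2 differences. For knockout minus wildtype, leaving out 1 library gave -0.1224 to 0.2321 for Hba-x and -0.0345 to 0.4105 for Hbb-bh1. For heterozygous minus wildtype it gave -0.5147 to 0.1379 for Hbb-bh1. For knockout minus heterozygous it gave -0.1671 to 0.4285 for Hba-a1, -0.2037 to 0.4528 for Hba-a2, -0.2185 to 0.8622 for Hbq1a, -0.1308 to 0.4903 for Hbb-bs and -0.1507 to 0.4954 for Hbb-bt. In that comparison Hba-a1 and Hba-a2 were at -0.0263 and -0.0236 with equal summed FPKM, -0.0267 and -0.024 with equal sums without the globins, and -0.0144 and -0.0165 under quantile normalization. With equal summed FPKM the median of all genes there was -0.0718. Leaving out 1 library also turned ratios: Hbb-bt to Hbb-bs spanned -0.0483 to 0.0049 for knockout minus wildtype and -0.0199 to 0.0235 for knockout minus heterozygous, where Hba-a2 to Hba-a1 spanned -0.0367 to 0.0244, the adult globins to Alas2 -0.0702 to 0.0837, and the adult globin percentage -0.6841 to 0.8101. From recovered reads the last 2 were 0.0006 and 0.0071. The causes were not tested. The filter of 5 FPKM left out the 3 embryonic genes, and 1 planned ratio was not run.

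With the replicate number as a block, the fits gave the same differences (0.38 for Hbq1b between knockout and heterozygous, adjusted p = 0.9997) and changed no call. The smallest exact p of the paired ratio tests is 0.25, and the alpha to beta ratio reached it between heterozygous and wildtype.

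3 libraries per genotype, unequal depth and 3 to 28 reads for the embryonic genes limit these results, and pairs of near-identical genes can trade reads.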
